A study of Homo sapiens with 16 samples.

Results

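The genes described here are the protein-coding genes whose symbol is PSMA, PSMB, PSMC, PSMD, PSME, PSMF or PSMG followed by a digit. There were 50 of them among 58302 gene identifiers in the counts, 19708 of which the annotation calls protein-coding. A further 44 pseudogenes and 7 long noncoding RNAs with such symbols were left out. The 50 genes lie on 17 chromosomes, and 48 of them encode parts, activators, inhibitors or assembly factors of the proteasome. The symbol also takes in PSMC3IP and PSME3IP1, which are no proteasome parts and are described apart.

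HEK293 cells, an established human embryonic kidney line, were depleted of Gemin5 by transfecting a small interfering RNA at 100 nM with Lipofectamine 2000 (siRNAG5) and compared with cells without it (Ctrl). The sample labels call Ctrl untreated, whereas the treatment protocol and the study's methods name a control siRNA. RNA was taken from cytoplasmic lysates (Input) and from the heavy fractions 8 to 12 of sucrose gradients, pooled (Polysome), and polyadenylated RNA was sequenced in 16 libraries, 4 for each of the groups Input Ctrl, Input siRNAG5, Polysome Ctrl and Polysome siRNAG5. The 4 libraries of a group came from 4 independent samples of one cell line, and the silencing was transient.

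The proteasome is the protease that breaks down most short-lived and damaged cytosolic and nuclear proteins once they carry ubiquitin. Its core is a barrel of outer alpha and inner beta rings, with the active sites on the beta subunits. Caps on the ends of the barrel open it: the regulatory particle, made of an ATPase ring with further base subunits and a lid, or the simpler activators. Chaperones that are not part of the finished particle guide its assembly. In cells exposed to interferon, 3 alternative beta subunits can replace the usual catalytic ones, which gives the immunoproteasome. When proteasome activity falls, the transcription factor NFE2L1 raises the genes of the subunits together, and it binds the antioxidant response element in many of their promoters.

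The libraries held 11145324 to 24511299 reads assigned to genes, and the 50 genes held 0.9075 to 1.3191% of them. GEMIN5, the silenced gene, stood at 15.9, 18.9, 16 and 20.7 CPM (read counts scaled to library size, with TMM factors over all libraries) in the Input Ctrl libraries and at 7.46, 6.51, 6.22 and 6.68 in Input siRNAG5, and at 5.5, 7.21, 7.76 and 9.28 in Polysome Ctrl against 2.1, 3.08, 3.05 and 2.35 in Polysome siRNAG5. The groups did not overlap in either fraction, and the log2 fold changes were -1.40 and -1.44. All 7 HEK293 markers were expressed. A list of 11 liver genes summed to 0.973 and 2.39 CPM in Input Ctrl 2 and 1 but to 131 and 114 CPM in Input Ctrl 3 and 4, to 70 to 146 CPM in Polysome Ctrl, and to no more than 1.13 CPM in any siRNAG5 library. It thus separated the treatments in Polysome and split the Ctrl libraries in Input. Over all libraries 7 of 8 leukocyte genes and all 4 erythroid genes averaged under 1 CPM, 1 of them at 0 throughout, but some were counted in Polysome Ctrl and hardly in Polysome siRNAG5: LYZ had 10 to 33 reads against 0 or 1, HBB 6 to 25 against 0 and PTPRC 2 to 4 against 0. Others of these lists did not follow in Polysome. HBA1 had 3 to 14 reads in Ctrl against 8 to 16 in siRNAG5, CD79A 1 to 4 against 1 to 7 and CORO1A 21 to 93 against 45 to 103. In Input, TYROBP had 0 reads in Ctrl and 4 to 11 in siRNAG5. The part of the liver, leukocyte and erythroid genes in the results was not tested. In Polysome, 1 component held 55% of the variance within groups and set Ctrl 1, siRNAG5 1 and siRNAG5 4 (loadings 0.458, 0.367 and 0.4) against Ctrl 3, Ctrl 4, siRNAG5 2 and siRNAG5 3 (-0.239 to -0.389). Counts of called genes are therefore also given without these 3 libraries, or without Input Ctrl 3 and 4, alternatives chosen after the data had been seen.

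The scale bears on every direction below. TMM factors, which centre the typical gene, were 0.741 to 0.852 in Input and 0.975 to 1.59 in Polysome, so a CPM here is not a plain share of the reads. With library size alone, also chosen after the data had been seen, the median log2 FC of all genes moved from 0.04 to 0.14 for siRNAG5 against Ctrl in Input, from 0.03 to 0.38 in Polysome, from -0.03 to 0.51 for Polysome against Input in Ctrl and from -0.04 to 0.69 in siRNAG5. The median of the proteasome genes less that of all genes hardly moved, from -0.42 to -0.42, -0.46 to -0.44, -0.32 to -0.34 and -0.37 to -0.37 in the same order. Higher and lower therefore mean relative to the typical gene.

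Per length of transcript, the beta ring was the most abundant class. On the TPM scale (read counts per length of the canonical transcript, scaled to library size), the 7 beta subunits in Input Ctrl ranged from 125 (PSMB2) to 1250 (PSMB4) with a median of 712. The 6 ATPases ranged from 41.7 TPM (PSMC1) to 266 (PSMC5) and the 8 lid subunits from 23 (PSMD12) to 408 (PSMD8). These levels rest on the length of the canonical transcript, which was 4426 bases for PSMB2, 4390 for PSMC1 and 4356 for PSMD12. In CPM of Input Ctrl, PSMB2 (631) was near PSMB3 (617) and PSMB7 (616), and PSMC1 (208) was above PSMC6 (165). The large base subunit PSMD1, a scaffold of the regulatory particle, was at 21.4 ± 1.8 TPM (SD, n = 4), and PSMD4, a ubiquitin receptor of the base, at 401 ± 15.7. The 4 chaperones of the core, PSMG1 to PSMG4, ranged from 75.2 (PSMG2) to 149 TPM (PSMG1).

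The alpha ring was uneven, with PSMA7 at 837 TPM in Input Ctrl and PSMA2 at 3.1. In an annotation later than the authors', all 1434 bases of the canonical PSMA2 transcript, 81.4% of those of PSMA6, 67% of PSMA1 and 56.1% of PSMB10 are also exons of another gene on the same strand, and reads on more than 1 gene are not counted for either. The gene that covers them had at most 0.569 CPM in any library. Whether reads were lost in this way was not tested, and levels and changes of PSMA1, PSMA2, PSMA6 and PSMB10, and of PSMD9 with 28.8% covered, are uncertain. PSMA2 had 46 to 138 reads per library. PSMC1 shares 76.1% of its exonic bases with NRDE2 on the opposite strand, and the strand setting of the counting is not given in the sources used here.

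In Input, most of the proteasome genes were lower in siRNAG5 than in Ctrl cells, and the changes that were called lower ran from -0.69 to -0.50 on the log2 scale. Of the 47 genes that passed the filter on low counts, 11 fell, which here means a Benjamini-Hochberg adjusted p of edgeR's quasi-likelihood test under 0.05 and a log2 fold change (log2 FC) beyond 0.5. Of all 14134 genes tested, 6.02% fell. PSMB9 alone rose, where 10.5% of all genes did. Without the limit on the fold, 32 of 47 were lower at an adjusted p under 0.05, against 19.1% of all genes, and in 31 the highest siRNAG5 library was below the lowest Ctrl library, against 19.1% of all genes. The median log2 FC was -0.39 over the 47 and 0.04 over all genes, and 37 were below 0, against 46.5% of all genes. In bulk RNA, fewer cells that express a gene and less of its RNA per cell cannot be told apart. Without Input Ctrl 2 the count that fell was 5 and without Input Ctrl 3 and 4 it was 15. Many of the values lie near the limit of 0.5. The shares of all genes that fell in these fits are not given here, and the 6.02% belongs to the fit with every Input library. With library size alone 3 fell (PSMC4, PSME3 and PSMG1, 3.18% of all genes), PSMB9 rose, and 35 of 47 were below 0.

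**Figure D1:**
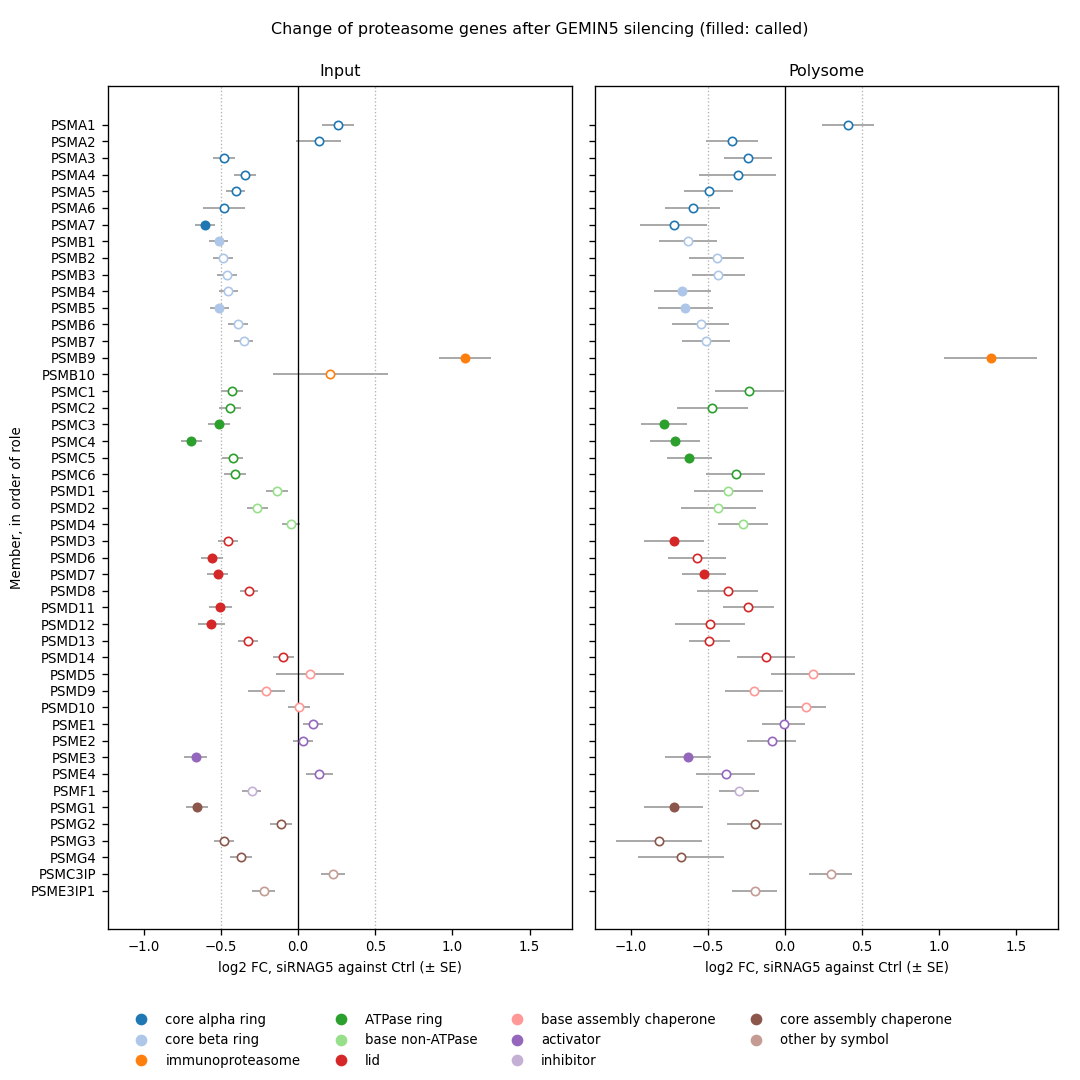
Log2 FC of siRNAG5 against Ctrl with its standard error (horizontal axis) for each gene tested (rows, in order of role), in Input on the left and Polysome on the right. Filled points passed both thresholds and dotted lines mark log2 FC of -0.5 and 0.5. Points of the beta ring and the ATPase ring lie left of 0 in both panels, PSME1 and PSME2 lie near 0, and PSMB9 lies far right (1.08 and 1.33).

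The largest fall in Input was that of PSMC4, an ATPase of the base (chr19:39971165-39981764, + strand, GRCh38). Its 4 Ctrl libraries had 296, 369, 311 and 316 CPM and its siRNAG5 libraries 200, 192, 205 and 195, so the groups did not overlap and siRNAG5 was the tighter group. The log2 FC was -0.69 ± 0.07 (SE), a change of -38.1% (adjusted p = 4.82e-09). In the same ring PSMC3 fell (log2 FC -0.51 ± 0.07, adjusted p = 8.94e-07), and all 6 ATPases were lower at an adjusted p under 0.05, the smallest change being that of PSMC6 (-0.41 ± 0.07).

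In the core, PSMA7 of the alpha ring (chr20:62136733-62143440, - strand) had 893, 1040, 885 and 851 CPM in Ctrl and 586, 598, 622 and 592 in siRNAG5. Every siRNAG5 value lay below every Ctrl value, and the log2 FC was -0.60 ± 0.06 (adjusted p = 2.08e-08). PSMA3, PSMA4 and PSMA5 were lower by 0.34 to 0.48 on the log2 scale without reaching the limit on the fold, whereas PSMA1, one of the genes with overlapped exons, was at 0.26 ± 0.10 (adjusted p = 0.0479). All 7 beta subunits were lower at an adjusted p under 0.05, in a narrow range from -0.51 (PSMB1) to -0.35 (PSMB7). Of these PSMB1 and PSMB5 passed the limit on the fold.

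The 3 catalytic beta subunits, PSMB5 (chymotrypsin-like), PSMB6 (caspase-like) and PSMB7 (trypsin-like), moved by similar amounts. PSMB5 (chr14:23016543-23035230, - strand) had 699, 820, 744 and 708 CPM in Ctrl and 525, 512, 533 and 498 in siRNAG5 (log2 FC -0.51 ± 0.06, adjusted p = 2e-07). The same groups read 618, 743, 691 and 638 against 511, 506, 525 and 497 CPM for PSMB6 (-0.39 ± 0.06, adjusted p = 1.83e-05). PSMB7 had 584, 659, 631 and 592 CPM against 476, 483, 499 and 459 (-0.35 ± 0.06, adjusted p = 3.65e-05). For each of the 3 the Ctrl and siRNAG5 libraries did not overlap.

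**Figure D2:**
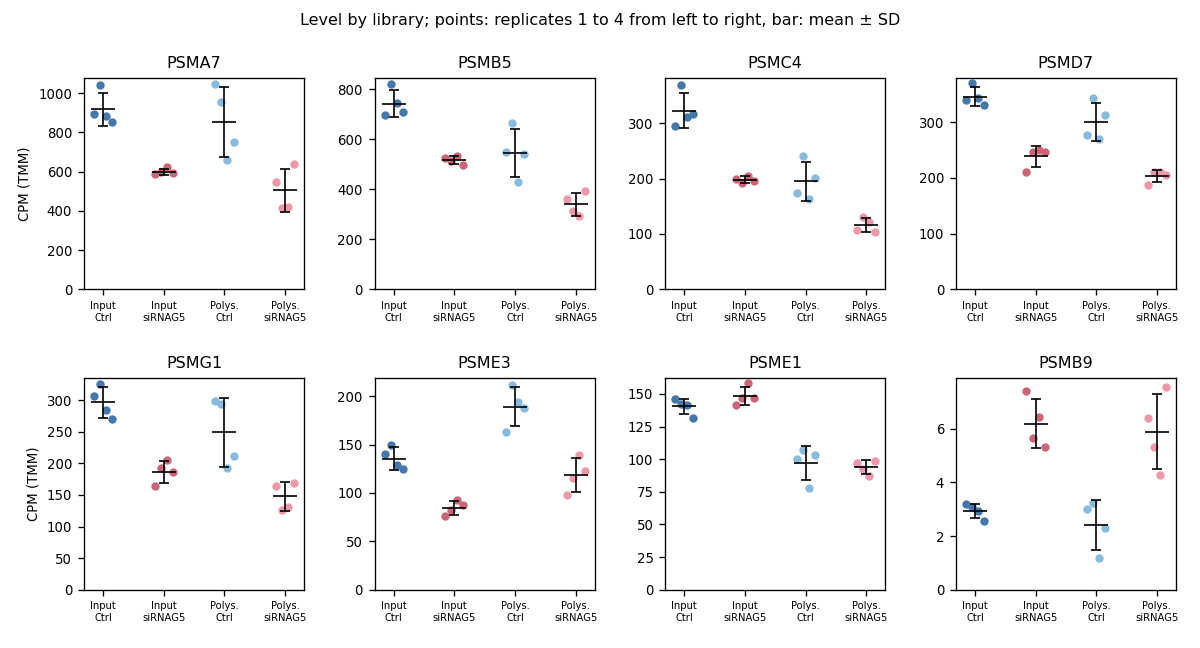
Level in CPM (vertical axis, from 0) of 8 genes in the 4 groups (horizontal axis), with a point per library and the mean ± SD as a bar. In PSMA7, PSMB5, PSMC4, PSMD7, PSMG1 and PSME3 all siRNAG5 points lie below the Ctrl points of their fraction, in PSME1 they overlap, and in PSMB9 they lie above.

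The lid held 4 of the 11 genes that fell. PSMD6 (-0.56 ± 0.07, adjusted p = 4.27e-07), PSMD7 (-0.52 ± 0.07, adjusted p = 3.56e-07), PSMD11 (-0.50 ± 0.07, adjusted p = 3.02e-06) and PSMD12 (-0.56 ± 0.09, adjusted p = 6.6e-06) are structural subunits of the lid. PSMD12 had 122, 119, 111 and 103 CPM in Ctrl and 58.7, 83.1, 80.1 and 83.5 in siRNAG5, and siRNAG5 1 lay apart below the others. PSMD14, the deubiquitinase of the lid, did not share this change: its values of 206, 201, 194 and 188 CPM in Ctrl and 163, 200, 185 and 185 in siRNAG5 overlapped (-0.10 ± 0.07, adjusted p = 0.275).

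The 3 base subunits outside the ATPase ring showed smaller values. PSMD4 had 576, 618, 617 and 597 CPM in Ctrl and 583, 580, 604 and 548 in siRNAG5, groups that overlapped (-0.04 ± 0.06, adjusted p = 0.586). PSMD2, a scaffold like PSMD1, was lower at -0.26 ± 0.07 (adjusted p = 0.00277) and PSMD1 was at -0.13 ± 0.07 (adjusted p = 0.142). The 3 chaperones of the base, PSMD5, PSMD9 and PSMD10, ranged from -0.21 to 0.08, none with an adjusted p or an unadjusted p under 0.05, and DESeq2 called none.

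Among the activators, PSME3 (PA28 gamma, the nuclear form) differed from its relatives PSME1 and PSME2 (PA28 alpha and beta, the cytosolic, interferon-induced form). PSME3 (chr17:42824385-42843760, + strand) had 140, 150, 128 and 124 CPM in Ctrl and 76.1, 82.4, 92.8 and 88 in siRNAG5, with no overlap (-0.66 ± 0.07, adjusted p = 4.12e-08). PSME1 had 146, 142, 141 and 132 CPM against 142, 147, 158 and 147 with overlap (0.09 ± 0.06, adjusted p = 0.258), and PSME2 was at 0.03 ± 0.07 (adjusted p = 0.731). PSME4 (PA200, an activator of another family) was at 0.14 ± 0.09 (adjusted p = 0.236), and PSMF1, an inhibitor of the core, at -0.30 ± 0.06 (adjusted p = 0.000369). The difference between genes was not tested.

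Of the chaperones of the core, PSMG1 (chr21:39174769-39183488, - strand) fell. It had 307, 325, 285 and 270 CPM in Ctrl and 164, 192, 205 and 187 in siRNAG5, groups that lay well apart (-0.65 ± 0.07, adjusted p = 2.82e-08). Its partner in the heterodimer, PSMG2, was at -0.11 ± 0.07 (adjusted p = 0.224), with 93, 95, 95.3 and 83.4 against 82.5, 90.7, 84.2 and 79.4 CPM in groups that overlapped. PSMG3 and PSMG4, which form the other dimer, were lower at -0.48 ± 0.07 and -0.37 ± 0.07 without reaching the limit on the fold.

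In Polysome the genes were again lower relative to the typical gene, with wider errors. Of 46 genes tested, 9 fell, against 4% of all 14420 genes, and PSMB9 rose, against 3.95%. At an adjusted p under 0.05 without the limit on the fold, 10 were lower, against 4.09% of all genes, and in 19 the highest siRNAG5 library was below the lowest Ctrl library, against 10% of all genes. The median log2 FC was -0.43 over the 46 and 0.03 over all genes, and 41 were below 0, against 46.9% of all genes. The median standard error was 0.18, where it was 0.07 in Input. The count that fell depended on single libraries: it was 5 without Polysome Ctrl 1, 0 without Ctrl 2, 1 without Ctrl 4, 1 without siRNAG5 1, 2 without siRNAG5 2 and 2 without siRNAG5 3. The shares of all genes that fell in these fits are not given here. Without the 3 libraries set apart by the Polysome component the count was 18, with 1788 of 14717 genes lower in all. DESeq2 called 18 genes lower, against 7.64% of all genes, and the fit with 1 surrogate variable also 18, against 9.72%, each including the 9. The median stayed between -0.51 and -0.32 in every fit with TMM, RLE or DESeq2 factors. With library size alone it was -0.06 where that of all genes was 0.38, 27 of 46 genes were below 0, none fell (1.44% of all genes did), and PSMA1, PSMC3IP and PSMB9 rose. On the TPM scale, which has no such factors, the median of the beta ring was 802 in Polysome Ctrl and 840 in Polysome siRNAG5.

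The 9 were PSMB4 and PSMB5 of the beta ring, the ATPases PSMC3, PSMC4 and PSMC5, the lid subunits PSMD3 and PSMD7, the activator PSME3 and the chaperone PSMG1. Of these PSMB5, PSMC3, PSMC4, PSMD7, PSME3 and PSMG1 also fell in Input, which makes 6 genes in both fractions of 14 in either. PSMC3 (chr11:47418769-47426473, - strand) had 239, 317, 237 and 281 CPM in Polysome Ctrl and 143, 163, 159 and 142 in Polysome siRNAG5, with no overlap (-0.78 ± 0.15, adjusted p = 0.0134). PSMC4 had 174, 242, 163 and 201 CPM against 107, 130, 122 and 104, again with no overlap (-0.71 ± 0.16, adjusted p = 0.0243).

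PSMG1 had 299, 294, 193 and 211 CPM in Polysome Ctrl and 164, 126, 132 and 170 in Polysome siRNAG5 (-0.72 ± 0.19, adjusted p = 0.0415). PSME3 had 163, 212, 194 and 188 CPM against 97.4, 115, 140 and 123 (-0.63 ± 0.15, adjusted p = 0.0305), while PSME1 was at -0.01 ± 0.14 (adjusted p = 0.985). In both PSMG1 and PSME3 the groups did not overlap, and in PSMG1 the Ctrl libraries 1 and 2 were higher than 3 and 4. PSMB4 (-0.67 ± 0.18, adjusted p = 0.0477), PSMB5 (-0.64 ± 0.18, adjusted p = 0.0477), PSMC5 (-0.62 ± 0.15, adjusted p = 0.0285), PSMD3 (-0.72 ± 0.20, adjusted p = 0.0452) and PSMD7 (-0.52 ± 0.14, adjusted p = 0.0437) were close to the threshold.

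The lowest value in Polysome belonged to PSMG3, which did not pass the test (-0.82 ± 0.28, adjusted p = 0.086). Its 4 siRNAG5 libraries had 117, 56.6, 64.8 and 139 CPM and its Ctrl libraries 201, 201, 134 and 145. The siRNAG5 libraries thus formed a high pair (1 and 4) and a low pair (2 and 3), and of the high pair library 4 reached into the Ctrl range. Of the other catalytic subunits, PSMB6 was at -0.55 ± 0.18 (adjusted p = 0.0838) and PSMB7 at -0.51 ± 0.15 (adjusted p = 0.0611). The alpha ring ranged from 0.41 (PSMA1) down to -0.72 (PSMA7), and edgeR called none of it. The lid ranged from -0.12 (PSMD14) down to -0.72 (PSMD3), with all 8 subunits below 0 and 2 called lower (PSMD3 and PSMD7). The chaperones of the base ranged from -0.20 (PSMD9) to 0.18 (PSMD5), none of them called. The smallest change in the ATPase ring was that of PSMC1 (-0.23 ± 0.22, adjusted p = 0.533) and in the beta ring that of PSMB3 (-0.43 ± 0.17, adjusted p = 0.13), while the base subunits spanned -0.43 (PSMD2) to -0.27 (PSMD4).

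**Figure D3:**
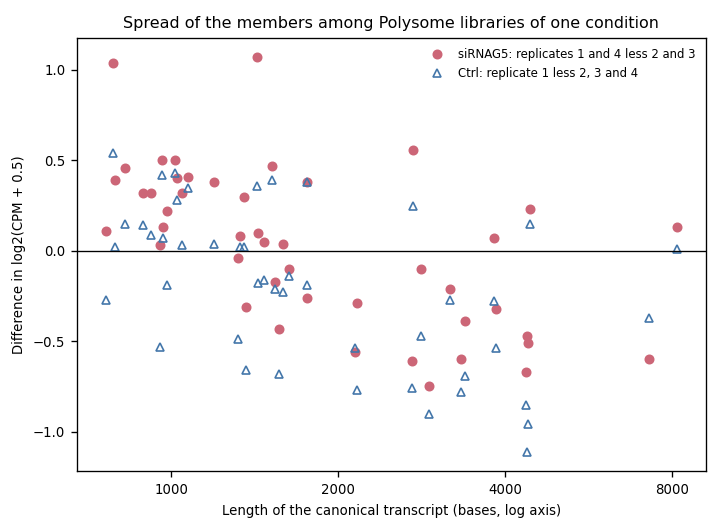
Difference between Polysome libraries of one condition in log2(CPM + 0.5) (vertical axis) against the length of the canonical transcript in bases (horizontal log axis) for 46 genes, as siRNAG5 1 and 4 less 2 and 3 (circles) and Ctrl 1 less the other Ctrl libraries (triangles). PSMG4, a short transcript, lies above 0 in both and PSMD2 and PSMD12, long ones, below 0, while the longest, PSMF1, lies at 0.13 and 0.01 and the shortest, PSMB3, at -0.27 in Ctrl.

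The spread within Polysome groups was related to transcript length, with exceptions. The mean of siRNAG5 1 and 4 less that of siRNAG5 2 and 3 ranged from -0.75 (PSMD2) to 1.07 (PSMG3) in log2(CPM + 0.5), with Spearman's rho of -0.63 against the length of the canonical transcript over 46 genes and of -0.58 over all genes tested. Polysome Ctrl 1 less the other Ctrl libraries gave rho of -0.55 with length, PSMA4 being lowest (-1.11, with 267 CPM in Ctrl 1 and 520 to 633 in the others). These coefficients are descriptions over genes that share their libraries. Gradients and RNA quality per library are not given, and their part was not tested.

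PSMB9, the immunoproteasome form of PSMB6, was the only one of the genes tested that rose in either fraction (chr6:32844136-32859851, + strand). Its Input Ctrl libraries had 3.18, 3.07, 2.93 and 2.56 CPM and Input siRNAG5 had 7.39, 5.64, 6.42 and 5.31, and the lowest silenced value was above the highest Ctrl value. The log2 FC was 1.08 ± 0.17, 2.12-fold (adjusted p = 5.98e-06). In Polysome the values were 3, 3.23, 1.17 and 2.28 CPM against 6.41, 5.31, 4.29 and 7.56 (1.33 ± 0.30, adjusted p = 0.0238), again with no overlap, but the call was lost without Polysome Ctrl 2, Ctrl 4 or siRNAG5 1. These are 21 to 164 reads per library. PSMB9 shares 5.2% of its exonic bases with PSMB8-AS1 on the same strand.

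The gain of PSMB9 was small beside the constitutive subunit it can replace. Per kilobase of canonical transcript, PSMB9 made up 0.354% ± 0.042 (SD, n = 4) of PSMB9 plus PSMB6 in Input Ctrl and 0.973% ± 0.134 in Input siRNAG5, and 0.336% ± 0.093 and 1.24% ± 0.081 in Polysome. The groups did not overlap in either fraction. The other immunoproteasome subunits were barely detected. PSMB8, the counterpart of PSMB5, had 0 to 2 reads per library and failed the filter in every comparison, and its share of PSMB8 plus PSMB5 was at most 0.0242% in any library. PSMB10, the counterpart of PSMB7, had 5 to 18 reads per library and was tested in Input (0.21 ± 0.37, adjusted p = 0.697) but failed the filter in Polysome.

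Whether silencing moved a gene differently in Polysome than in Input was tested as an interaction over all 16 libraries. Of 46 proteasome genes edgeR called 0 lower (0% of all 14958 genes) and 0 higher (0% of all genes). With no adjustment, 2 of them had p under 0.05 and lay lower, 0 lay higher, and DESeq2 called 0. Over all genes 4.69% lay lower and 2.59% higher on that count, so the share among the proteasome genes was near that background. The 2 were PSME4 (-0.55 ± 0.21, adjusted p = 0.547) and PSMA2 (-0.50 ± 0.20, adjusted p = 0.556). The differences ranged from -0.55 to 0.23 (PSMD11), with a median of -0.08 over the 46 and of -0.06 over all genes. The median standard error was 0.19, and over all 46 genes the values 2 standard errors to either side of the estimate spanned -0.98 to 0.92, so a moderate difference between fractions was not detectable for single genes. With 1 surrogate variable PSME4 was called lower (-0.75), where 2.79% of all genes were. Without the 3 libraries set apart in Polysome, PSMG3 and PSMG4 were called lower (-0.89 and -0.78). The share of all genes called in that fit is not given here.

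Against the typical gene, most of the proteasome genes were lower in Polysome than in Input of Ctrl cells. Of 46 genes tested, 15 were lower in Polysome, against 18.8% of all 13666 genes, and 1 was higher (PSMA2), against 20.8%. The median was -0.35 over the 46 and -0.03 over all genes. In siRNAG5 cells 22 of 47 were lower, against 21.2% of all 14795 genes, and 4 were higher (PSMD5, PSMD10, PSMD11 and PSME3), against 23.9%, with medians of -0.41 and -0.04. All 15 that were lower in Ctrl were also lower in siRNAG5. As plain shares of the reads the direction was the opposite: the 50 genes held on average 1.16% of the reads in Input Ctrl and 1.26% in Polysome Ctrl, and 0.948% and 1.16% in siRNAG5. With library size alone 1 gene was lower and 8 were higher in Ctrl (5.55% and 45.7% of all genes) and 1 was lower and 17 higher in siRNAG5 (5.39% and 57.6%), with medians of 0.17 and 0.32. The gene that was lower in both was PSMD1. Neither scale counts molecules on ribosomes. Input and Polysome RNA came from the same lysates, which these fits treat as independent, and with the replicate number as a block 2 genes were higher in Ctrl.

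PSMD1 was lowest in both conditions. It had 74.3, 84.9, 78.6 and 85.1 CPM in Input Ctrl and 19.4, 31.6, 31.4 and 38.3 in Polysome Ctrl, with no overlap (-1.41 ± 0.16, adjusted p = 4.49e-06). In siRNAG5 it had 70.5, 69.8, 76.1 and 75.3 CPM in Input and 20.1, 28, 26.6 and 15.9 in Polysome (-1.60 ± 0.17, adjusted p = 1.64e-05). The ATPases PSMC1 (-0.92 ± 0.18, adjusted p = 0.000466) and PSMC2 (-0.91 ± 0.18, adjusted p = 0.000506) followed in Ctrl, and 4 of the 6 ATPases were lower. PSMC1 had 202, 235, 207 and 190 CPM in Input Ctrl and 63.7, 126, 119 and 127 in Polysome Ctrl, where library 1 lay far below the rest.

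**Figure D4:**
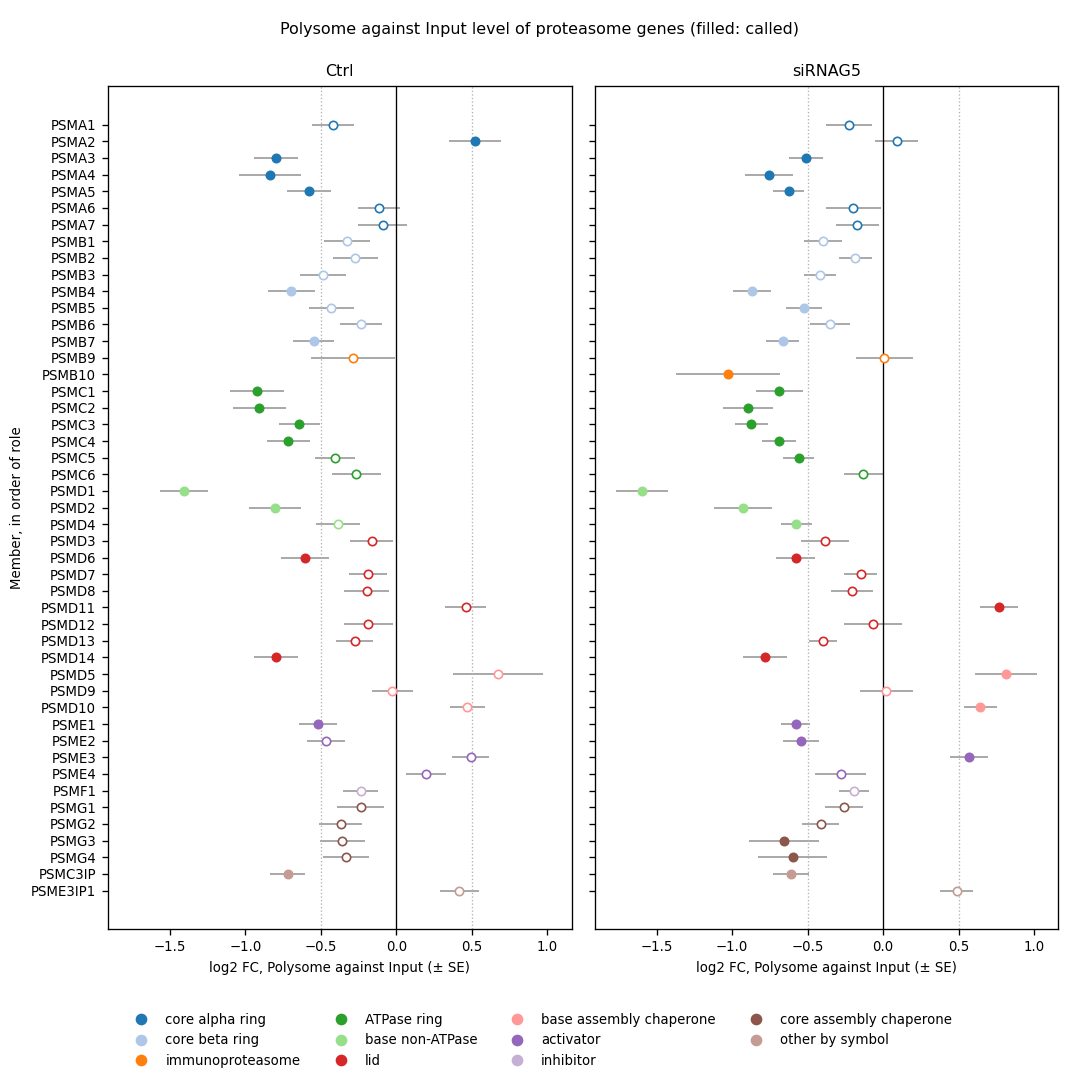
Log2 FC of Polysome against Input with its standard error (horizontal axis) for each gene tested (rows, in order of role), in Ctrl on the left and siRNAG5 on the right. Filled points passed both thresholds. PSMD1 lies farthest left in both panels (-1.41 and -1.60), while PSMD5, PSMD10, PSMD11 and PSME3 lie right of 0.

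At the other end stood PSMD5 (0.67 ± 0.30, adjusted p = 0.0749 in Ctrl), a chaperone of the base with 17 to 156 reads per library, PSMA2 (0.52 ± 0.17, adjusted p = 0.0205) and PSME3 (0.49 ± 0.12, adjusted p = 0.00325). PSME3 had 140, 150, 128 and 124 CPM in Input Ctrl and 163, 212, 194 and 188 in Polysome Ctrl, and the fractions did not overlap. The call of PSMA2 was lost without Input Ctrl 4 or Polysome Ctrl 2, and without Polysome Ctrl 1 the count of higher genes was 6. It was 3 without Input Ctrl 1, Input Ctrl 2 or Polysome Ctrl 3, and 2 without Polysome Ctrl 4. With every library 20.8% of all genes were higher, and the shares in the fits with a library left out are not given here. In siRNAG5, PSMD11 (0.77 ± 0.12, adjusted p = 0.000293) and PSMD10 (0.64 ± 0.11, adjusted p = 0.000381) were higher in Polysome by TMM. These comparisons share their Input and Polysome libraries with the comparisons of siRNAG5 and Ctrl above.

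Other genes of the pathway are given from fixed lists, to be read against the 6.02% of all genes that fell and 10.5% that rose in Input and the 4% and 3.95% in Polysome. Of 12 further proteasome parts and partners, 3 fell in Input: ADRM1, a ubiquitin receptor of the base (-0.75 ± 0.07, adjusted p = 1.87e-09), USP14, a deubiquitinase bound to it (-0.78 ± 0.09, adjusted p = 5.19e-08), and POMP, the maturation factor of the core (-0.55 ± 0.08, adjusted p = 2.64e-06). The median of the list was -0.25. ADRM1 had 377, 472, 381 and 411 CPM in Input Ctrl and 258, 230, 245 and 235 in Input siRNAG5, with no overlap. In Polysome ADRM1 fell as well (-0.89 ± 0.16, adjusted p = 0.0129), while POMP (-0.63 ± 0.22, adjusted p = 0.0862) and USP14 (-0.48 ± 0.26, adjusted p = 0.25) did not pass. None of the 12 rose in either fraction.

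At an unadjusted p under 0.05, 22.5% of all genes were lower and 22.9% higher in Input, and 13.3% and 14.4% in Polysome. The regulator NFE2L1 and its pathway were not called. Of 9 genes none fell or rose by edgeR or by DESeq2, and at an unadjusted p under 0.05 there were 0 lower and 1 higher in Input and 0 of either kind in Polysome. NFE2L1 itself was at 0.24 ± 0.14 in Input (adjusted p = 0.182) and 0.07 ± 0.28 in Polysome (adjusted p = 0.905). Of 6 ubiquitin precursor and E1 genes none was called by edgeR in either fraction, with 1 lower and 3 higher in Input when p was left unadjusted and 2 lower in Polysome, both of which DESeq2 called. Of 11 genes of the shuttles and the p97 complex, UFD1, a p97 cofactor, fell in Polysome (-0.50 ± 0.14, adjusted p = 0.0442) and none was called in Input (UFD1 -0.49 ± 0.07, adjusted p = 1.09e-06), where p without adjustment gave 5 lower and 1 higher and DESeq2 called none. Of 8 genes of the interferon-induced class I pathway 7 were tested and none was called by either tool, with 3 higher in Input and 1 higher in Polysome at an unadjusted p under 0.05. Among them TAP1, the neighbour of PSMB9 that encodes a peptide transporter, was at 0.39 ± 0.10 in Input (adjusted p = 0.00183) and 0.18 ± 0.14 in Polysome (adjusted p = 0.424).

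The remaining genes of the symbol rule were few. PSMA8, the alpha subunit of the testis, and PSMB11, the beta subunit of the thymus, had 0 or 1 read per library and failed the filter in every comparison. PSMC3IP, a recombination factor also known as HOP2, was at 0.23 ± 0.08 in Input (adjusted p = 0.0233) and 0.30 ± 0.14 in Polysome (adjusted p = 0.198), and it shares 30.1% of its exonic bases with MLX on the opposite strand. PSME3IP1, a protein that binds PSME3, was at -0.22 ± 0.08 (adjusted p = 0.0204) and -0.20 ± 0.15 (adjusted p = 0.409). Without both, the median in Input was -0.40 over 45 genes.

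Promoter windows of RefSeq (GRCh38.p14, the 250 bases before the start) were found for 44 of the 50 genes. The core of the antioxidant response element, TGACNNNGC on either strand, was in at least 1 window of 13 of the 44 (29.5%) and of 13.2% of 27305 genes with a window. It was in 4 of the 12 with a window among the 14 genes that fell in either fraction. It was also in 9 of the other 32, PSMB9 and PSME1 included. For PSMC5 the core was in the window chr17:63827471-63827770, before its downstream start, and not in the window chr17:63827181-63827480. Neither window holds the annotated 5' end of PSMC5 (63827152). The window of PSMB9, chr6:32853942-32854241, does not hold the annotated 5' end of that gene (32844136). Shown with the core in capitals, each on the strand of its gene, are the 4 of the genes that fell and that of PSMB9, which rose, since they let the element be compared between genes that moved in opposite directions.
PSMG1, chr21:39183601-39183659, - strand, bases 183 to 175 before the start: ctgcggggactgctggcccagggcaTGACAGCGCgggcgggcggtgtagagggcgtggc
PSMD12, chr17:67366709-67366767, - strand, bases 165 to 157 before the start: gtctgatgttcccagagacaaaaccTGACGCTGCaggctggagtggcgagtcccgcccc
PSMD3, chr17:39980745-39980803, + strand, bases 37 to 29 before the start: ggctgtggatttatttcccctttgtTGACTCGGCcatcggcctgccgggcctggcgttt
PSMC5, chr17:63827639-63827697, + strand, bases 57 to 49 before the start, core on the opposite strand: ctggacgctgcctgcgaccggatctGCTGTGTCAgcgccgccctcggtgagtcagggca
PSMB9, chr6:32854019-32854077, + strand, bases 148 to 140 before the start, core on the opposite strand: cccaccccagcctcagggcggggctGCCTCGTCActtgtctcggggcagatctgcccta

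The CCAAT box (CCAAT on either strand) was in 21 of the 44 (47.7%) and in 37% of all genes with a window, in 8 of the 12 that fell and in 13 of the other 32. A start with C followed by 4 of C or T occurs in mRNAs with a terminal oligopyrimidine tract. It was found in 1 of the 44, PSMB5 (2.27%), and in 5.14% of all genes. In PSMB5 it was in the window chr14:23034851-23035150. It was not in the window chr14:23035171-23035470, which holds the annotated 5' end of the gene (23035230). A match of these letters is a description and was not tested as a binding site.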

How the data were processed

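RNA of 16 libraries was analysed, 4 per group. The authors made stranded poly(A) libraries, used STAR 2.5.3a to align reads to GRCh38 and QoRTs for counting. What they deposited are raw, whole-number read counts for Ensembl genes. Reads on several places, no gene or more than 1 gene (4.88 to 42.4%, 0.667 to 1.33% and 4.14 to 7.41% of a library) were left out. Reads on several places were 4.88 to 6.04% of a library in Input and 21.2 to 42.4% in Polysome, highest in Polysome siRNAG5 1. Their part in the results was not tested. Symbols, lengths and coordinates came from GENCODE v44, a later annotation of GRCh38. All genes that passed filterByExpr were scaled by TMM and fitted by quasi-likelihood (glmQLFit, glmQLFTest in edgeR 4.0.16, under R 4.3.3), each comparison on its own libraries, and adjusted by Benjamini-Hochberg. Standard errors are the log2 FC divided by the root of F. DESeq2 1.42.0, sva 3.50.0, pandas 2.3.3, scipy 1.17.1 and matplotlib 3.10.9 were also used. Functions were tested on simulated counts. The genes, lists and tests were chosen with earlier results of these data known. Named are the genes called in siRNAG5 against Ctrl, the catalytic and immunoproteasome subunits, the extremes of each role class and of Polysome against Input in Ctrl, untested genes, GEMIN5 and called genes of the lists. GENCODE genes that were not in the authors' annotation could not change the counts, and overlaps may differ between releases. Alternatives were RLE size factors, library size alone (chosen after the data had been seen), no filter, DESeq2, other call rules, the replicate number as a block, 1 surrogate variable, one fit of 16 libraries and each library left out. The 4 libraries of a group are the replicates, and p-values set the difference between groups against the spread between them. PCR duplicates are not marked, so precision rests on reads, not molecules.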

Additional observations from a re-analysis of the deposited data

Results flagged for a closer look

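Dixon's test on CPM was run on 38 named genes of the symbol rule and on GEMIN5. In 13 of 156 groups of 4 libraries, 1 library lay far from the other 3. Chance alone gives about 1 in 20 such groups, but the genes share their libraries, so the groups are not independent. Polysome Ctrl 1 was low in PSMC1 (63.7 CPM, others 119 to 127), PSMD2 (92.7, others 169 to 180), PSMD11 (106, others 153 to 156) and PSMD12 (61.7, others 110 to 114). Polysome siRNAG5 1 was low in PSMD7 (187 CPM, others 206 to 210) and PSME3IP1 (82.4, others 93.5 to 95.8) and high in PSMA2 (6.1, others 5.31 to 5.4). Both libraries are among the 3 that share the Polysome component, and the part of that component in these values was not tested.

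In Input siRNAG5 1 the lid subunits PSMD7 (211 CPM, others 247 to 250) and PSMD12 (58.7, others 80.1 to 83.5) were low, and PSMB8 was at 0.0666 CPM, from 1 read, with 0 in the others. In Input Ctrl, library 2 was high in PSMC3 (483 CPM, others 398 to 409), library 1 was low in PSMG3 (198, others 226 to 229) and library 4 was low in PSMA2 (4.36, others 5.27 to 5.34). PSMA2 and PSMB8 rest on few reads.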

How the results depend on the processing

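Medians of the log2 FC kept their sign under every alternative with TMM, RLE or DESeq2 factors. With library size alone, chosen after the data had been seen, they were -0.28 in Input and -0.06 in Polysome, 0.19 for the difference between fractions, and for Polysome against Input they reversed to 0.17 in Ctrl and 0.32 in siRNAG5. That scale gave 3 lower in Input, 0 lower and 3 higher in Polysome, and for Polysome against Input 1 lower and 8 higher in Ctrl and 1 lower and 17 higher in siRNAG5. On it 14 of 46 genes lay below 0 in Ctrl, against 39 with TMM, and 8 of 47 in siRNAG5, against 39. Some named genes were called by TMM and took the opposite sign, or were newly called in the opposite direction. These were PSMD9 (0.51) and PSME1 (0.00) in Ctrl. In siRNAG5 they were PSMA1 (0.50), PSMA7 (0.55), PSMB5 (0.20), PSMB7 (0.06), PSMC1 (0.07), PSMC4 (0.06), PSMC5 (0.17) and PSMC6 (0.62). Also among them in siRNAG5 were PSMD4 (0.17), PSMD6 (0.17), PSMD7 (0.59), PSMD12 (0.70), PSME1 (0.15), PSMF1 (0.54), PSMG3 (0.04) and PSMC3IP (0.12). Removing the factors shifts the genes of a comparison by about the same amount. With the factors, in Input (11 lower, 1 higher) the lower count was 7 with no filter on low counts and 32 with no limit on the fold, where 3 were higher, and it ranged from 5 (without Ctrl 2) to 15 (without Ctrl 1) with a library left out. In Polysome (9 lower, 1 higher) the lower count was 18 by DESeq2 and with 1 surrogate variable. It was also 18 without the 3 libraries set apart (8 of the 9 included), and 21 in one fit of all 16 libraries. At an unadjusted p under 0.05 the lower count was 17 with the limit on the fold and 22 with no such limit. It ranged from 0 (without Ctrl 2) to 9 with a library left out, and the higher count from 0 to 1. For the difference between fractions (0 called) the lower count was 1 with 1 surrogate variable (2.79% of all genes), 2 without the 3 libraries and 2 at an unadjusted p. In Ctrl, Polysome against Input, 1 gene was higher. This count was 2 with RLE size factors, by DESeq2, with the replicate block and at an unadjusted p with the limit on the fold. It was 4 with no filter, 5 at an adjusted p with no limit on the fold, 6 without the 3 libraries and 0 without Input Ctrl 3 and 4. With a library left out it ranged from 0 to 6. In this section the counts with a library left out stand without the shares of all genes in the same fits. The causes were not tested. The replicate block gave 10 lower in Input, 6 lower in Polysome, and 16 lower in Ctrl and 22 lower in siRNAG5 for Polysome against Input. Same-numbered libraries deviated together in some pairs and not in others (r from -0.53 to 0.483, and from -0.207 to 0.222 between fractions of one condition). Input and Polysome came from the same lysates, but the labels do not say that a shared number marks one lysate, so the block is given as an alternative. Standard errors, with medians of 0.07 in Input and 0.18 in Polysome, limit what single genes show, and PSMB8, PSMB10, PSMA2 and PSMD5 are limited by reads.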
